A study of Homo sapiens with 6 samples.

Results

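The keratins compared here between 2 lung cancer cell lines are 7 genes: the simple-epithelial keratins KRT7, KRT8, KRT18 and KRT19 and the basal keratins KRT5, KRT15 and KRT17. They were found by name among the 12659 genes with deposited expression values, and all 7 had a row. The lines were NCI-H1650, an established human lung adenocarcinoma line labelled pre-LUAD, and NCI-H1650Re, labelled post-SCLC, that is, after transformation to small cell lung cancer. The question was which transcripts differ between the states. Polyadenylated RNA was sequenced in 3 libraries per line. The labels give no treatment, do not say how NCI-H1650Re was made or whether it is 1 clone, and do not name the cultures that the replicates came from. The p-values therefore cover the variation among these libraries alone, which may be technical. Estimated depth was 17 to 22.3 M fragments per library. Levels are FPKM, fragment counts scaled to transcript length and library depth, which allows levels of different genes to be compared, given as mean ± SD of 3 libraries. A difference is the NCI-H1650Re value less the parental value of log2(FPKM + 1), a scale that understates the change of low genes. They were tested with limma on 11764 genes, with a Benjamini-Hochberg adjusted p under 0.05 as the threshold.

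Keratins are the intermediate filament proteins of epithelial cells. A filament is built from pairs of a type I and a type II chain, so a cell needs both types. KRT8 (type II) and KRT18 (type I) are the basic pair of simple epithelia. KRT7 (type II) and KRT19 (type I) join them in ducts, glands and airway. All of them are used in pathology to recognise carcinomas, adenocarcinoma among them, and are not particular to adenocarcinoma. KRT5 (type II) and KRT15 (type I) mark the basal layer of stratified epithelia and airway basal cells, and KRT17 (type I) is induced in wounded or inflamed epithelium. In NCI-H1650Re, KRT19, KRT15 and KRT5 fell strongly, KRT8 fell slightly and KRT17 rose, while KRT18 and KRT7 did not pass the test. That is 4 falls and 1 rise among 7 members, where 13.9% of all genes tested fell and 16.6% rose (30.5% in either direction). Of these, 3 fell and 1 rose by at least 1 on the log2 scale, as did 1.79% and 1.27% of all genes tested. KRT5, counted in both numbers of falls, reached the minimum of 1 FPKM for testing in NCI-H1650 alone. The lines did not overlap for 6 of the 7, the exception being KRT18, where 47.2% of all genes tested did not overlap.

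Keratin genes are close relatives, which bears on how well reads can be assigned to them. The stretch of 60 coding bases that ends the central rod domain, one of the most conserved parts of the protein, is shown for the 4 type I genes from GENCODE release 29 transcripts, 5′ to 3′. Capitals mark bases that differ from KRT19.
KRT19: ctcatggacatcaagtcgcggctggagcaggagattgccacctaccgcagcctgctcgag
KRT15: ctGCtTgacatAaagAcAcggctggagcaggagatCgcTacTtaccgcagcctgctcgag
KRT17: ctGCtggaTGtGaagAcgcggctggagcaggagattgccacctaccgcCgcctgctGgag
KRT18: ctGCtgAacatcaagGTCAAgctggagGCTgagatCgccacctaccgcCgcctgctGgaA
From KRT19, KRT17 differed at 8 of these bases, KRT15 at 9 and KRT18 at 15. Over the aligned coding sequence, KRT19 was 76.0% identical to KRT17, 73.4% to KRT15 and 67.6% to KRT18.

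On log2(FPKM + 1), KRT19 had the second largest fall of the 11764 genes tested, a rank that depends on this scale, since KRT5 had the larger ratio of means. The parental libraries 1 to 3 held 644, 787 and 831 FPKM, and libraries 1 to 3 of NCI-H1650Re held 37.9, 51.9 and 116. All 3 NCI-H1650Re libraries were far below the lowest parental one, and replicate 3 was the highest of each line. The means, 754 ± 97.5 and 68.7 ± 41.8 FPKM (n = 3 per line), differed 11-fold. The log2 difference was -3.59 (SE 0.36, 95% interval -4.42 to -2.77, limma adjusted p = 0.000721). KRT19 was read from 21561 to 23267 fragments per library in NCI-H1650 and from 1175 to 3213 in NCI-H1650Re, so counting error was small in both.

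KRT8, the type II partner of KRT18, fell by much less. It stood at 1019, 1152 and 1403 FPKM in the parental libraries and at 852, 895 and 837 in the NCI-H1650Re libraries. The lowest parental library still lay above the highest NCI-H1650Re library, and the parental libraries were the more spread. The means of 1191 ± 195 and 861 ± 30.0 FPKM differed 1.38-fold, with a log2 difference of -0.46 (SE 0.11, limma adjusted p = 0.0214). With replicate 2 of the parental line left out the call was lost (limma adjusted p = 0.0660), as with that of NCI-H1650Re left out (0.0611).

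KRT18 was at 686, 679 and 983 FPKM in the parental libraries and at 809, 884 and 845 in NCI-H1650Re. The lines overlapped because parental replicate 3 exceeded every NCI-H1650Re library, whereas parental replicates 1 and 2 lay below them all. Its log2 difference was 0.13, with a 95% interval from -0.20 to 0.46 (limma adjusted p = 0.501). It passed without NCI-H1650 replicate 3 (log2 difference 0.31, limma adjusted p = 0.0212).

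KRT7 was at 712, 745 and 942 FPKM in NCI-H1650 and at 1102, 974 and 961 in NCI-H1650Re. Every NCI-H1650Re library was higher than every parental one, but parental replicate 3 came close to the lowest of them. Its log2 difference was 0.35, with a 95% interval from 0.08 to 0.62 before adjustment, and missed the threshold (limma adjusted p = 0.0563). It passed with replicate 3 of the parental line (limma adjusted p = 0.0106) or of NCI-H1650Re (0.0484) left out and with quantile normalization (0.0322).

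**Figure D1:**
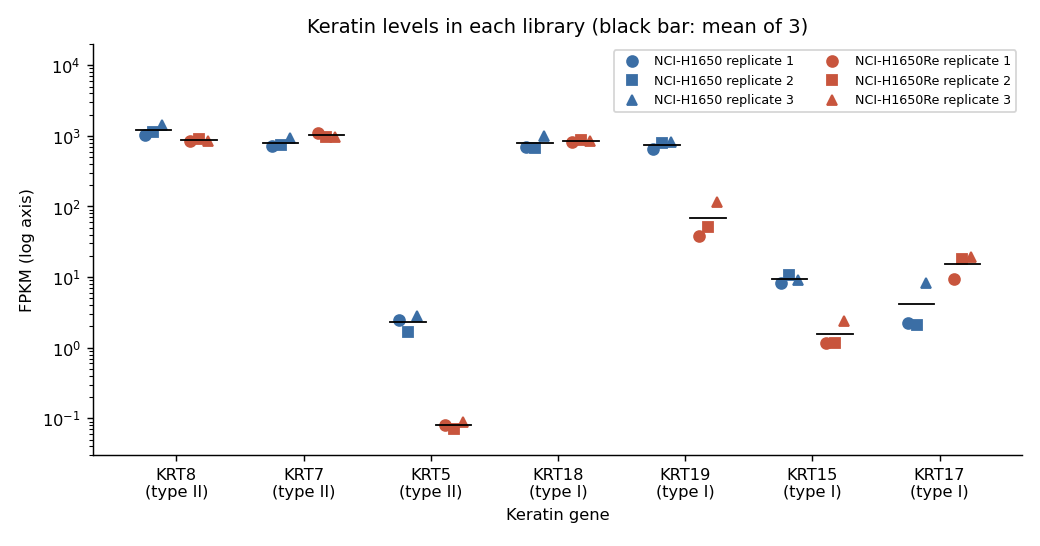
FPKM of the 7 keratins on a log axis, with 1 point per library (blue NCI-H1650, red NCI-H1650Re, symbol by replicate) and a black bar for the mean of 3. KRT19, KRT15 and KRT5 sit lower in all red libraries, KRT17 sits higher, and KRT18 overlaps; the KRT19 means are 754 and 68.7 FPKM.

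The basal keratins were far less abundant, and 2 of the 3 fell. KRT15 was at 8.28, 10.7 and 9.05 FPKM in NCI-H1650 and at 1.17, 1.18 and 2.40 in NCI-H1650Re. The lines were well separated, and replicate 3 was again the highest of NCI-H1650Re. The means of 9.33 ± 1.21 and 1.58 ± 0.71 FPKM differed 5.89-fold (log2 difference -2.03, SE 0.18, limma adjusted p = 0.000493), on 806 to 1080 fragments in NCI-H1650 and 124 to 227 in NCI-H1650Re.

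KRT5 was at 2.44, 1.67 and 2.86 FPKM in NCI-H1650 and at 0.08, 0.07 and 0.09 in NCI-H1650Re. It was thus a low transcript in the parental line and close to the detection limit in NCI-H1650Re, where each library held 4 fragments, against 138, 82 and 123 in NCI-H1650. Its means differed 29-fold, the largest ratio of the 7. KRT5 reached the minimum of 1 FPKM for testing in NCI-H1650 alone, so its test carries that selection. The log2 difference was -1.60 (SE 0.15, limma adjusted p = 0.000493) on log2(FPKM + 1), but -4.83 by edgeR on the deposited counts, where the added 1 does not compress low values (adjusted p = 0.000110 over the 860 genes with counts, which the authors had selected as regulated).

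Among the RefSeq promoter sequences, 2 of the 7 members matched, KRT5 and KRT8. The 250 bases before the RefSeq start of KRT5, chr12:52520395-52520644 on the minus strand (GRCh38.p14), are shown since KRT5 had the largest ratio between lines. In GENCODE release 29 the gene extends to 52520687, so the window lies within that longer gene model. The capitals mark a TATA-like box.
KRT5: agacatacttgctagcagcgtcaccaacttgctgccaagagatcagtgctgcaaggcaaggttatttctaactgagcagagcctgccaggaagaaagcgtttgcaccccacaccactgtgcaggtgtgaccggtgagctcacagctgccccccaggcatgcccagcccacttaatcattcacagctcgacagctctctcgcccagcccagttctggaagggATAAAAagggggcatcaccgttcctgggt
A TATA-like box (TATAAA or ATAAAA, either strand) was present in 19.7% of all 35116 promoters over the same 250 bases. A GC box (GGGCGG) and an AP-1 site (TGANTCA), searched on both strands, were found in 42.6% and 6.57% of promoters, and neither sequence occurs in this window.

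KRT17 went the other way. It was at 2.26, 2.10 and 8.18 FPKM in NCI-H1650 and at 9.30, 18.3 and 19.0 in NCI-H1650Re. The lines did not overlap, but parental replicate 3 came near the lowest NCI-H1650Re library and held 212 fragments, against 77 and 62 in the other parental libraries. The means of 4.18 ± 3.47 and 15.5 ± 5.39 FPKM differed 3.71-fold (log2 difference 1.81, SE 0.43, limma adjusted p = 0.0181). The call was lost with parental replicate 1 left out (limma adjusted p = 0.0665), and with replicate 2 of the parental line (0.0692) or of NCI-H1650Re (0.0702) left out.

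With 3 libraries a line, the exact permutation p (two-sided) is at least 0.1. The 6 keratins without overlap reached it, and KRT18 had an exact permutation p = 0.4. In the authors' deposited table, KRT19 (log2 fold change -3.48), KRT15 (-2.59) and KRT5 (-4.86) were marked as down and KRT17 (1.87) as up, 4 of 7 members where 6.79% of the genes listed were marked. KRT8 had a fold change of -0.50 on the log2 scale and an FDR of 0.00124 in the authors' deposited table and was not marked there; no marked gene had an absolute log2 fold change under 1.

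**Figure D2:**
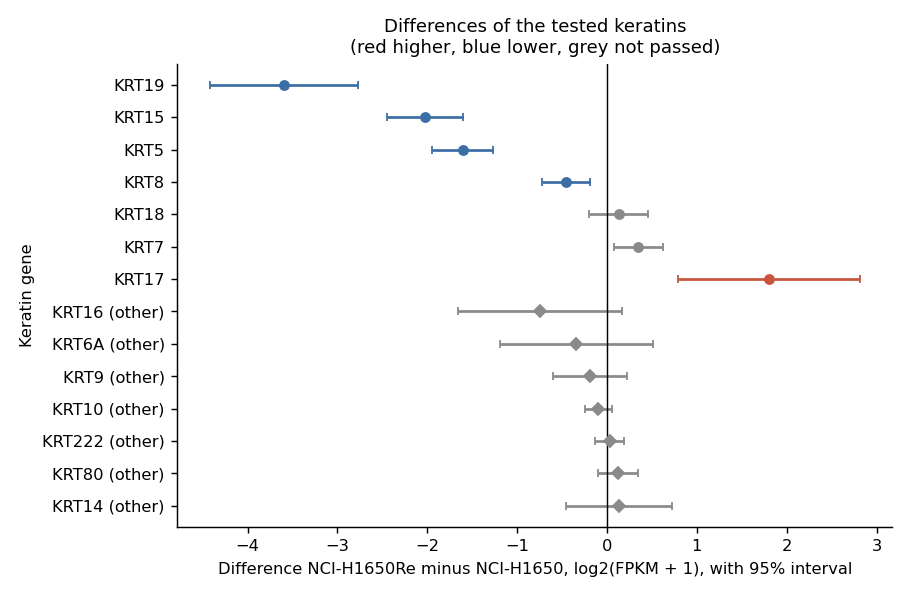
Difference in log2(FPKM + 1), NCI-H1650Re minus NCI-H1650, with its 95% interval, for the 7 keratins (circles) and the 7 other keratins tested (diamonds); red passed as higher, blue as lower, grey did not pass. KRT19 lies at -3.59 and KRT17 at 1.81, and the intervals of all 7 other keratins include 0.

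These differences changed the make-up of the keratin transcripts. In NCI-H1650 the order of levels was KRT8, then KRT7, KRT18 and KRT19, whose libraries overlapped, then KRT15, and KRT17 and KRT5, which overlapped each other. In NCI-H1650Re it was KRT7, then KRT8 and KRT18, which overlapped, then KRT19, KRT17, KRT15 and KRT5, each separate from the next. KRT8, KRT7, KRT18 and KRT19 ranked 17, 37, 38 and 39 by mean FPKM among the 11764 genes tested in NCI-H1650. In NCI-H1650Re the first 3 ranked 30, 23 and 31, and KRT19 ranked 829. KRT5 ranked 9956 and then 11761, KRT15 went from rank 5663 to 10720, and KRT17 from 8427 to 3991.

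Of the summed FPKM of the 7 keratins, KRT19 made up 20.9%, 23.3% and 19.9% in the NCI-H1650 libraries and 1.35%, 1.84% and 4.18% in those of NCI-H1650Re. KRT7 made up 22.0% to 23.2% of the sum in NCI-H1650 and 34.5% to 39.2% in NCI-H1650Re. KRT18 made up 20.1% to 23.5% and 28.8% to 31.3%. KRT8 held 33.2% to 34.1% and then 30.1% to 31.7%. The 3 basal keratins together were 0.422% to 0.481% of the sum in NCI-H1650 and 0.375% to 0.772% in NCI-H1650Re, ranges that overlapped. Their main member switched from KRT15 to KRT17. These shares add to a whole, so a lower share of 1 gene raises the others, and they were not tested.

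**Figure D3:**
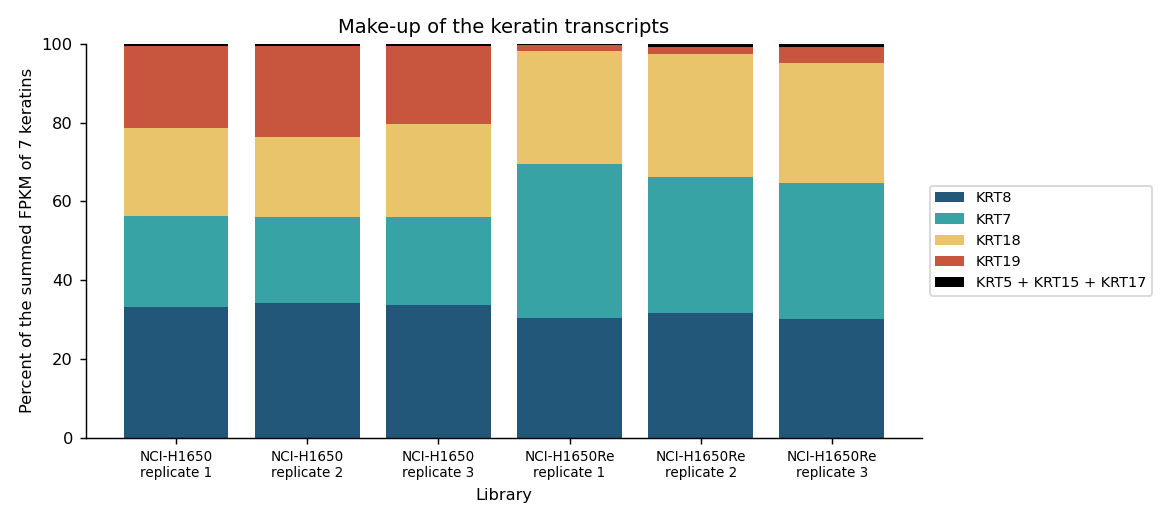
Share of each keratin in the summed FPKM of the 7 (y axis, percent) for each library (x axis). The KRT19 band narrows from 19.9% to 23.3% in the NCI-H1650 libraries to 1.35% to 4.18% in those of NCI-H1650Re.

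Since type I and type II chains pair, the sums of each type were set side by side. The type II sum (KRT5, KRT7, KRT8) was 1993 ± 318 FPKM in the parental line and 1873 ± 77.9 in NCI-H1650Re, and the lines overlapped. The type I sum (KRT15, KRT17, KRT18, KRT19) was 1550 ± 253 and 932 ± 65.6 FPKM, with no overlap. The ratio of type I to type II was 0.773, 0.779 and 0.780 in the NCI-H1650 libraries and 0.439, 0.511 and 0.546 in those of NCI-H1650Re. The parental libraries thus had almost the same ratio although their summed levels ranged from 3075 to 4179 FPKM. No test was made of these sums, which were built from chosen genes. Other keratins, KRT16 and KRT80 among them, are not in the sums.

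Ratios within a library do not depend on scaling between libraries. KRT19 was at 0.939, 1.16 and 0.845 times the level of KRT18, the other type I keratin of simple epithelia, in NCI-H1650, and at 0.0468, 0.0587 and 0.138 times in NCI-H1650Re. The log2 ratio differed by -3.75 between lines (exact two-sided permutation p = 0.1, the smallest possible). The ratio of KRT17 to KRT15 was 0.273, 0.197 and 0.904 in NCI-H1650 and 7.95, 15.5 and 7.90 in NCI-H1650Re: KRT15 was the higher of these basal keratins in all 3 parental libraries and KRT17 in all 3 of NCI-H1650Re. That log2 ratio differed by 4.76 (exact permutation p = 0.1). KRT18 stood at 0.590 to 0.701 times KRT8 in NCI-H1650 and at 0.950 to 1.01 times in NCI-H1650Re, and KRT7 at 0.647 to 0.699 and then 1.09 to 1.29 times KRT8.

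The share of each transcript that also occurs in a transcript of another gene differed widely among the 7. Of all 50-base stretches, 37.1% in KRT8 and 31.8% in KRT18 were found in transcripts of other genes, mostly processed pseudogenes, of which these genes have many; for 100-base stretches the shares were 6.73% and 0%. KRT17 shared 17.4% of its 50-base stretches, with KRT17P1 holding the most, and 0.353% of its 100-base stretches. KRT19 (1.79%), KRT15 (0.328%), KRT7 (0.997%) and KRT5 (3.99%) were nearly free of shared 50-base stretches. The sources used here do not give the read length, so the values of KRT8, KRT18 and KRT17 are uncertain to that extent. In addition, KRT8 and KRT18 overlap on opposite strands by 1084 bases in GENCODE release 29, and KRT7 overlaps KRT86, KRT87P and KRT7-AS. Whether strand was used in counting is not given, so reads from stretches overlapping on opposite strands cannot be told apart here. KRT86 lies on the same strand as KRT7, so strand would not separate that pair.

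The type I members other than KRT18 lie in the keratin cluster on the minus strand of chromosome 17 (GRCh38, by Ensembl identifier in GENCODE release 29). KRT15 runs from 41513743 to 41522529, KRT19 from 41523617 to 41528308 and KRT17 from 41619441 to 41624842. KRT15 and KRT19, which fell, are separated by 1.088 kb, and KRT17, which rose, lies 91.1 kb beyond KRT19. Between KRT19 and KRT17 start KRT9, KRT14 and KRT16, which did not pass (log2 differences -0.19, 0.13 and -0.75; limma adjusted p = 0.450, 0.722 and 0.183). Of 11 other tested genes that start within 500 kb of these members, 2 fell, 2 rose and 7 did not pass. Of all genes tested, 13.9% fell and 16.6% rose (30.5% in either direction). Among these neighbours, the collagen chaperone FKBP10 (-1.29) and the adjacent P3H4 (-0.52) fell. The translation factor EIF1 (0.45) and the co-chaperone DNAJC7 (0.26) rose. The genes JUP, encoding plakoglobin, and ACLY, ATP citrate lyase, did not pass (log2 differences 0.04 and 0.30).

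**Figure D4:**
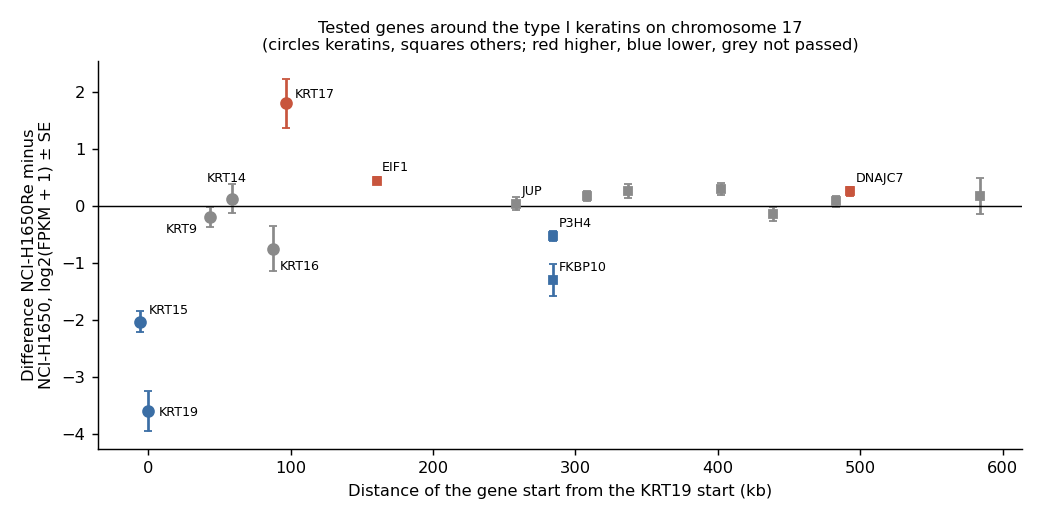
Difference in log2(FPKM + 1) ± SE (y axis) of the tested genes around the type I keratins, by distance in kb of each gene start from that of KRT19 (x axis); circles are keratins, squares other genes. KRT15 (-2.03) and KRT19 (-3.59) lie next to each other at the bottom, and KRT17 (1.81) lies at the top, at 96.5 kb.

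The type II members and KRT18 lie on chromosome 12: KRT7 from 52232520 to 52252186, KRT5 from 52514575 to 52520687, KRT8 from 52897187 to 52949954 and KRT18 from 52948871 to 52952901. Of 17 other tested genes starting within 500 kb of them, 3 rose, 2 fell and 12 did not pass. Of all genes tested, 30.5% passed. Among these neighbours, the largest differences past the threshold were those of IGFBP6 (1.23) and the nuclear receptor NR4A1 (0.90), both with overlapping lines. CSAD (-0.34) and PRR13 (0.33) followed. The prefoldin subunit PFDN5 (-0.21) and the translation factor EIF4B (-0.07) did not pass. Without replicate 2 of either line, none of the 17 passed. Fewer genes passed in the whole table too: 1785 of 11763 without NCI-H1650 replicate 2 and 1898 of 11757 without NCI-H1650Re replicate 2.

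None of the other keratins passed limma: of 9 with values, 7 were tested, with 0 at an unadjusted p under 0.05. KRT16, a type I keratin of wounded and hyperproliferative epithelium, was at 78.6, 77.5 and 111 FPKM in NCI-H1650 and at 28.7, 48.4 and 99.7 in NCI-H1650Re. Replicate 3 was the highest of each line, and that of NCI-H1650Re reached the parental range. Without it KRT16 fell (log2 difference -1.21, limma adjusted p = 0.00601) and KRT9 did too (-0.39, 0.0421). In that fit 4478 of all 11767 genes tested passed. Without both replicate 3 libraries KRT16 alone of these keratins fell (-1.04, limma adjusted p = 0.00552), where 5080 of 11767 genes passed. KRT80, a broadly expressed type II keratin, was at 68.4 ± 5.55 and 74.7 ± 7.92 FPKM. KRT10, a keratin of differentiating epidermis, was at 15.5 ± 0.31 and 14.4 ± 0.58, and KRT222 at 22.0 ± 1.10 and 22.5 ± 0.91. KRT14, the usual partner of KRT5, was at 1.18 ± 0.73 and 1.35 ± 0.53 FPKM, KRT6A at 2.31 ± 1.97 and 1.40 ± 0.60 and KRT9 at 1.40 ± 0.14 and 1.15 ± 0.56. KRT14, KRT16 and KRT17 are close in sequence, with 86.5% of aligned coding bases the same between KRT17 and KRT14. Of its 50-base stretches, however, KRT17 shared only 0.954% with KRT14 and 1.09% with KRT16.

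Of the genes of the structures that anchor and organise keratin filaments, 23 were tested from a list of 28. Of these, 11 fell, 3 rose and 9 did not pass, where 13.9% of all genes tested fell and 16.6% rose. Their median log2 difference was -0.36, against 0.03 over all genes tested. The largest falls were those of COL17A1, the hemidesmosomal collagen, from 146 ± 5.21 to 27.5 ± 18.5 FPKM (limma adjusted p = 0.00340), and of the desmosomal cadherins DSG3 (log2 difference -1.71) and DSC3 (-1.40) and the desmosomal plaque protein PKP1 (-1.37). JUP was at 192 ± 25.0 and 198 ± 20.3 FPKM and PNN, a nuclear and desmosome-associated protein, at 79.5 ± 2.15 and 77.5 ± 2.12, and neither passed.

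**Figure D5:**
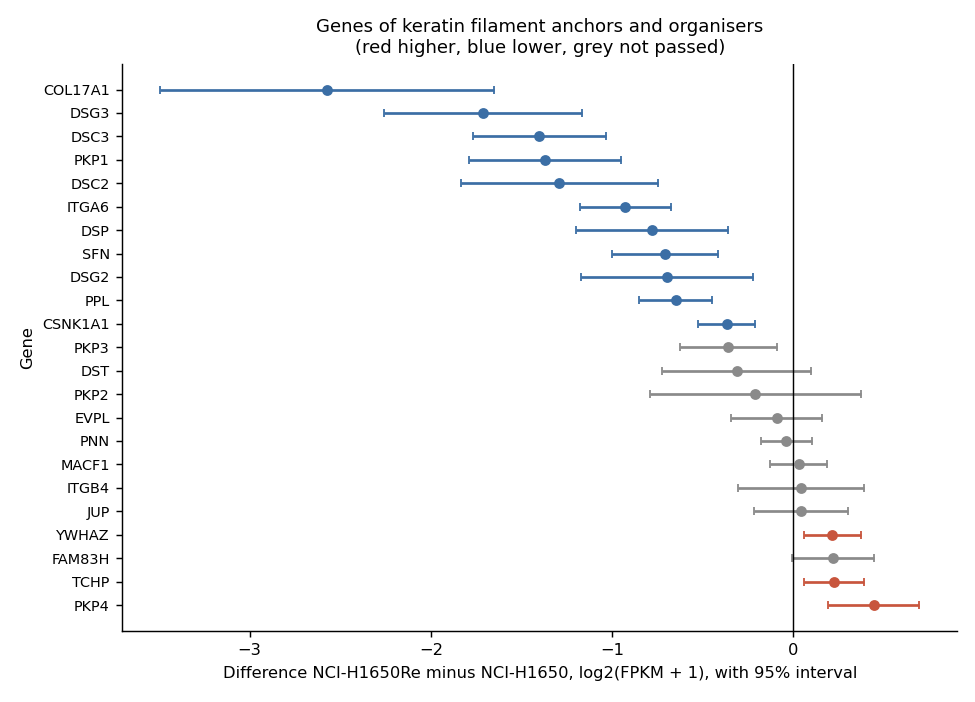
Difference in log2(FPKM + 1), NCI-H1650Re minus NCI-H1650, with its 95% interval (x axis) for the 23 tested genes of keratin filament anchors and organisers (y axis); red passed as higher, blue as lower, grey did not pass. COL17A1 (-2.57) lies farthest left, and 11 genes are blue against 3 red.

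Of 9 tested genes of other intermediate filaments, SYNC, encoding syncoilin, rose from 0.803 ± 0.11 to 1.64 ± 0.49 FPKM (limma adjusted p = 0.0282), and 8 did not pass. The lamin genes LMNA and LMNB2 were at 223 ± 13.1 and 46.2 ± 2.60 FPKM in NCI-H1650 and at 266 ± 50.1 and 60.1 ± 10.3 in NCI-H1650Re. Without both replicate 3 libraries 6 of the 9 rose. In that setting 5080 of 11767 genes tested passed, 2792 as rises, against 3587 of 11764 with all libraries. The list of transcription and splicing factors of epithelial and basal programmes had 36 genes and also held inducers of mesenchymal transition such as TWIST1. From it 19 genes were tested. Of these, 6 fell, 2 rose and 11 did not pass, where 13.9% of all genes tested fell and 16.6% rose. The falls were largest for TWIST1 (-1.59), an inducer of mesenchymal transition, the epithelial factor ELF3 (-0.88) and the epithelial splicing regulator ESRP2 (-0.70). KLF4, a factor of epithelial differentiation, rose from 6.55 ± 3.72 to 17.04 ± 4.50 FPKM (1.33, limma adjusted p = 0.0172). STAT3 (-0.19) and NFE2L2 (0.17) did not pass. Without NCI-H1650 replicate 2, 4 of 19 genes of this list and 9 of 23 of the anchor list passed. So did 1785 of all 11763 genes tested. Without NCI-H1650Re replicate 2 the counts of the lists were 4 and 10, with 1898 of all 11757 genes.

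For each of the 5 members past the threshold, the 3 tested genes with the most similar profile were taken by the root mean square difference of centred log2(FPKM + 1) over the 6 libraries, a description in which the 2 lines set most of the pattern. Closest to KRT19 were CASP14, a caspase of epidermal differentiation (0.367), the protease KLK5 (0.373) and a locus without a gene name (0.524). KLK5, like KRT19, was highest in replicate 3 of NCI-H1650Re, at 126 FPKM against 23.2 and 41.1. Closest to KRT15 were CLCA2 (0.0902), MCC (0.156) and TMC5 (0.177), and among those closest to KRT5 were LURAP1L (0.176) and MAMDC2 (0.176). KRT8 was nearest to the protease inhibitor CST3 (0.0535), FAM96B (0.0558) and an unnamed locus (0.0602). KRT17 was nearest to KLHDC7B (0.240), RARRES3 (0.249) and IFIT2 (0.250), an interferon-induced gene. IFIT2 was at 22.7, 21.9 and 64.1 FPKM in NCI-H1650 and at 55.7, 87.6 and 133 in NCI-H1650Re, so that, as for KRT17, parental replicate 3 was above the other parental libraries.

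Of 7 lung epithelium and adenocarcinoma markers 3 had values, EPCAM, CDH1 and MUC1, and these were present in both lines. The others of this list were not analysed here. EPCAM fell from 148 ± 14.0 to 104 ± 10.4 FPKM and CDH1 from 248 ± 9.16 to 141 ± 23.4, whereas MUC1 did not pass (log2 difference -0.43). The 3 epithelial markers measured summed to 416 to 462 FPKM in the parental line and 238 to 324 in NCI-H1650Re. Of 9 small cell and neuroendocrine markers, 4 had values, summing to 6.61 to 7.41 and 8.56 to 14.1 FPKM; CHGA rose from 0.563 ± 0.59 to 3.39 ± 1.55. CHGB, SYP and DLL3 did not pass (log2 differences 0.09, 0.25 and 0.29), and the remaining 5 of this list were not analysed here. Of 7 fibroblast markers 3 had values, summing to 20.6 to 23.8 and 34.5 to 51.2 FPKM; COL3A1 rose from 10.1 ± 1.65 to 32.5 ± 10.1. COL1A1 (log2 difference 0.51) and PDGFRA (0.01) did not pass, with overlapping lines, and endothelial and blood markers were not analysed here. The part of these in the keratin differences was not tested. Pearson correlations of log2 values, across genes, which are not independent replicates, ranged from 0.988 to 0.997 among the parental libraries, from 0.980 to 0.994 among those of NCI-H1650Re and from 0.959 to 0.970 across lines. Fewer expressing cells and less RNA per cell cannot be told apart in these bulk libraries.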

How the data were processed

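RNA for the 6 libraries was extracted with a miRNeasy kit, and libraries of polyadenylated RNA were prepared with a BGI mRNA kit, per the labels' protocols. The submitters' processing notes list, with no version, the tools HISAT2, Bowtie2, RSEM and DESeq2. They also name the build mm10, whereas the identifiers are human; which human build was used is not known. The authors deposited FPKM for 12659 genes, and counts for the 860 they marked as regulated. Per the file headers, the tables also hold the authors' log2 fold change and FDR, an adjusted p-value. How the genes listed were filtered is not given.

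A gene entered the fit if the mean of 1 line or both reached 1 FPKM. The fit used limma with a variance trend, as log2(FPKM + 1), with the line as the only term. All 7 members passed the filter, KRT5 through NCI-H1650 alone. edgeR was run on the deposited counts, and library sizes were taken from the count a gene has per FPKM. Depth came from this quotient, over 205 genes between libraries and 10 genes with 1 annotated transcript for the level.

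Named genes were the 7 members, the other keratins with a mean of at least 1 FPKM, up to 4 genes past the threshold and up to 2 that did not pass per list, the cell type markers and the 3 nearest profiles. A few of these items are not reported here. Members and lists were chosen with earlier results of these data known. Alternatives left out each library or both replicate 3 libraries, dropped the variance trend or the filter, set the minimum to 5 FPKM, used pseudocounts of 0.1 or 0.01, added a replicate block, or scaled by quantiles or by median of ratios. The scripts were tested on simulated data. Versions were R 4.3.3, limma 3.58.1, edgeR 4.0.16, Python 3.11.15 and matplotlib 3.10.9.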

Additional observations from a re-analysis of the deposited data

How the results depend on the processing

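KRT19, KRT15 and KRT5 kept their direction and passed under all 16, 16 and 15 alternatives run, and all 7 members kept their direction in every alternative. KRT5 fell below a 5 FPKM minimum and was not fitted there. The edgeR alternative was run only for the 4 members with counts. The authors had selected genes with counts as regulated in these same libraries, so passing edgeR is no independent check. Leaving out 1 library gave log2 differences of -4.05 to -3.25 for KRT19, -2.24 to -1.92 for KRT15, -1.75 to -1.49 for KRT5, 1.53 to 2.32 for KRT17, -0.56 to -0.33 for KRT8, 0.042 to 0.31 for KRT18 and 0.27 to 0.47 for KRT7. Without both replicate 3 libraries KRT7 (0.51) and KRT18 (0.31) passed, and with quantile normalization KRT7 (0.39) did; the cause was not tested. KRT5 reached -3.72 and -4.67 with pseudocounts of 0.1 and 0.01, which compress low values less.

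Leaving out 1 library gave 3 to 7 members past the threshold, 1785 to 4478 of all genes, 0 to 2 other keratins, 9 to 14 filament anchors, 0 to 3 other intermediate filaments, 4 to 9 regulators and 0 to 7 neighbours of the type II members. Without both replicate 3 libraries, which left 2 per line, 1 other keratin and 6 other intermediate filaments passed, as did 5080 of all genes. With the 5 FPKM filter, 0 of 6 other intermediate filaments and 3 of 15 neighbours of the type II members passed, with 2795 of 8295 genes in all. SYNC, NR4A1 and CSAD, which passed in the main fit, had means under 5 FPKM in both lines and were not tested there. The share of rises among all genes called was 54.4%, against 49.2% with median-of-ratios scaling.

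Deviations from the line means correlated between lines at 0.17, -0.04 and 0.21 for replicate numbers 1, 2 and 3. NCI-H1650 replicate 2 correlated best with NCI-H1650Re replicate 1 (0.23), and the replicate 3 libraries correlated best with each other. With 3 libraries per line, these values cannot tell whether replicate numbers pair the libraries. With a replicate block 5 members (KRT19 adjusted p = 0.00175), 3522 genes in all, 3 other intermediate filaments and 3 neighbours of the type II members passed. Depth limits KRT5 in NCI-H1650Re, at 4 fragments per library.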
